A study of Homo sapiens with 28 samples.

Results

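The genes described here are 10 transcriptional outputs and feedback regulators of the ERK branch of the MAPK pathway: DUSP4, DUSP5, DUSP6, SPRY2, SPRY4, SPRED1, SPRED2, ETV4, ETV5 and PHLDA1. They were found by symbol among the 62703 genes of the count tables, and all 10 were expressed above the filter in both cell lines. The list was chosen from measured values, since earlier results of these same libraries were known when it was drawn up. Their RNA levels, fold changes and calls are therefore given as a description, with no p-value for any member, and the counts of members called support nothing on their own.

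RNA-seq of 24 libraries was made from colorectal cancer (CRC) cells of human origin. From MDST8, which belongs to the CMS4 (mesenchymal) class, came 3 libraries (A to C) of wild type (WT) cells and 3 of each of 5 TWIST1 knockout (KO) clones, named 1.1, 2.2, 3.2, 3.5 and 3.6 here; each clone was grown from a single cell after electroporation of Cas9 with TWIST1 guide RNAs. From LoVo, a non-CMS4 line, came 3 libraries labelled shRNA control and 3 labelled TWIST1 shRNA. TWIST1 ChIP-seq of unmodified cells of each line gave 1 peak list per line. Per the labels, cells were grown in DMEM with 10% FBS, and the study's methods name other media as well. The sample titles call 1.1 clone TG1, 2.2 clone TG2 and each of 3.2, 3.5 and 3.6 clone TG3. Library names keep the last 3 apart, and they are treated as separate clones here. The labels do not say whether these tags name guide RNAs, so the 5 clones may not be 5 independent edits. Each clone is a line of its own, so a difference from WT covers what is particular to that clone as well as the edit, and these cannot be told apart. The labels do not say whether the 3 libraries of a group came from separate cultures, so their spread may be technical.

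ERK signaling limits itself through genes that it switches on. Active RAS recruits RAF, RAF activates MEK, and MEK activates ERK, which enters the nucleus and acts on transcription factors. DUSP4 and DUSP5 encode nuclear phosphatases and DUSP6 a cytoplasmic one, each of which removes phosphate from ERK. Sprouty (SPRY) and SPRED proteins act further up, between the receptor and RAF, and SPRED1 works with neurofibromin, a protein that inactivates RAS. ETV4 and ETV5 are ETS transcription factors that carry out part of the response, and PHLDA1 is a pleckstrin-homology-like protein induced by mitogens. In CRC, mRNA of DUSP6, SPRY4, ETV4, ETV5 and PHLDA1 is widely used as a readout of ERK activity.

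Some facts about the libraries bear on the values below. TWIST1 went against the LoVo labels: it had 0 counts in each of the 3 libraries labelled shRNA control, and 73, 89 and 93 counts in the libraries labelled TWIST1 shRNA. The groups are therefore called by their labels, and no direction of TWIST1 loss is drawn from LoVo; other measurements of TWIST1 in these cells were not analysed here. TWIST1 mRNA was still present in every MDST8 knockout clone, at 28.2 to 57.0 CPM (counts scaled to a common library size) against 40.0 to 51.8 in WT. It was called lower in clone 2.2 only, at 28.2 to 30.2 CPM (log2 -0.65 ± 0.07). Clone 1.1 also lay below WT, at 34.5 to 38.4 CPM, and clones 3.2, 3.5 and 3.6 overlapped WT. Fragment counts do not show whether the coding sequence was cut. LoVo library 1 labelled TWIST1 shRNA stood apart from its group: counts over genes differed between it and libraries 2 and 3 by a chi-square per degree of freedom of 18.6 and 28.4, against 4.17 between libraries 2 and 3. Without library 1 the LoVo log2 differences were 3.28 for DUSP6, 2.05 for DUSP4, -0.24 for DUSP5, -2.39 for SPRY2 and 1.86 for SPRY4. They were -0.12 for SPRED1, 0.81 for SPRED2, -1.24 for ETV4, 2.1 for ETV5 and 1.70 for PHLDA1, and the same 8 members were called. Mitochondrial genes took 3.49 to 3.96% of counts in LoVo labelled shRNA control but 5.47 to 10.9% in LoVo labelled TWIST1 shRNA, and in MDST8 they took 2.4 to 3.05% in WT. Clones 1.1, 2.2 and 3.5 lay wholly above WT, at 3.24 to 3.68%, 3.21 to 3.35% and 3.89 to 4.37%, while clones 3.2 and 3.6 overlapped it at 2.80 to 4.02% and 2.38 to 3.28%. The part of this share in the results was not tested.

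Total counts ran from 16567606 to 22217009 per library. Of 8 epithelial markers, 8 exceeded 1 CPM in all LoVo libraries, but only 2 did in any MDST8 group, where CDX1 was at 0 in every library, whereas 4 of 4 mesenchymal markers were above 1 CPM in MDST8 and 3 of 4 in LoVo. The summed mesenchymal list was 8690 to 9380 CPM in MDST8 WT and 8900 to 9730 CPM in clone 3.6, which overlapped. It was higher in clones 1.1, 2.2, 3.2 and 3.5, at 10800 to 16000 CPM. In LoVo it was 176 to 182 CPM in the libraries labelled shRNA control and 43.2 to 48.9 CPM in those labelled TWIST1 shRNA, where CDH2 was at 0. The part of this list in the results was not tested. The summed epithelial list was 8060 to 8320 CPM in LoVo labelled shRNA control and 4670 to 5260 CPM in LoVo labelled TWIST1 shRNA. The leukocyte list summed to at most 0.338 CPM and the endothelial list to at most 1.44 CPM in any library. The fibroblast list (COL1A1, COL1A2 and DCN) summed to 299 to 1290 CPM in MDST8, 2.42 to 4.72 CPM in LoVo labelled shRNA control and 53.9 to 81.0 CPM in LoVo labelled TWIST1 shRNA, and its part in the results was not tested. As in any bulk RNA, fewer cells that express a gene and less RNA per cell cannot be told apart.

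Levels of the members differed widely within a cell line. Per kb of exon, the mean level in MDST8 WT ran from 5.00 CPM per kb for SPRY4 to 137 CPM per kb for PHLDA1, with SPRY2 next at 41.2 CPM per kb. In LoVo labelled shRNA control it ran from 6.56 CPM per kb for SPRY4 to 322 CPM per kb for DUSP5. DUSP5 had the widest range over the 8 groups, a 27.9-fold ratio between the highest and the lowest group mean, followed by DUSP6 (12.3), SPRY2 (11.3), ETV4 (6.65) and PHLDA1 (6.41). SPRED1 and SPRED2 had the narrowest ranges, at 2.1 and 1.83.

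**Figure D1:**
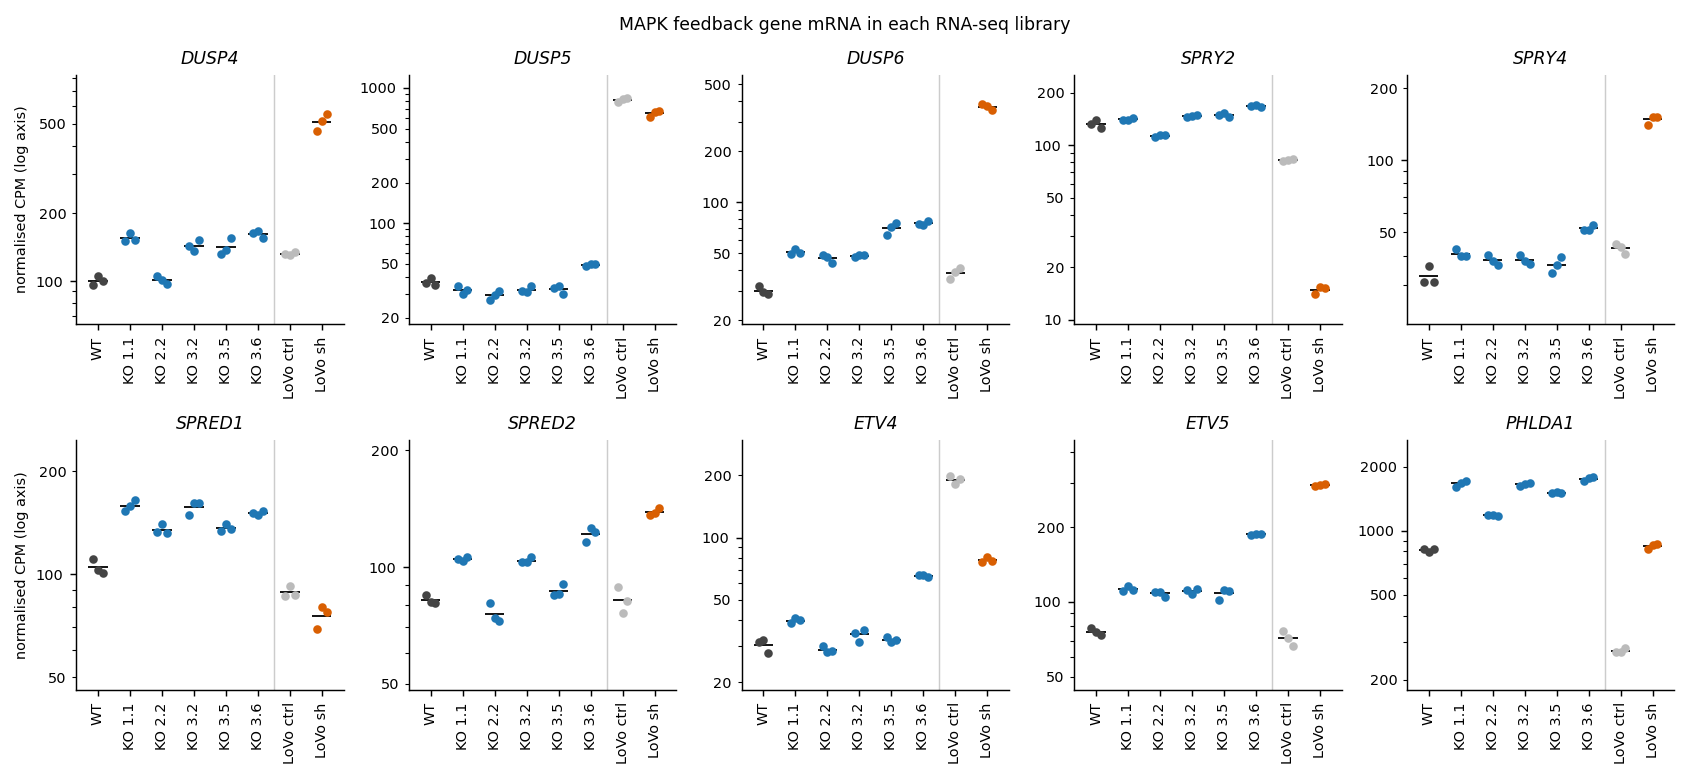
CPM (log axis, a different range in each panel) of the 10 genes in 24 RNA-seq libraries, with 1 point per library and a bar at the mean of the 3 libraries of a group; LoVo ctrl and LoVo sh are the libraries labelled shRNA control and TWIST1 shRNA. DUSP6 lies between 28.5 and 31.9 CPM in MDST8 WT, below all 15 knockout libraries, and between 350 and 380 CPM in LoVo labelled TWIST1 shRNA.

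Promoter sequences are shown for 3 members: DUSP6, called in all clones, PHLDA1, called in 4, and SPRY2, which was lower in LoVo labelled TWIST1 shRNA. RefSeq promoters (GRCh38.p14) were matched for 6 of the 10 members. The 250 bases before the start were searched on both strands for CATCTG, an E-box that TWIST1 can bind, and for CCGGAA, a longer form of the ETS core GGAA. The core GGAA alone was not searched for. Over all 35116 promoters of the table, 12.2% hold CATCTG and 14.5% hold CCGGAA in this window. Each is given 5′ to 3′ on the gene's own strand, here the minus strand, with any match in capitals.
DUSP6 (chr12:89352502-89352751): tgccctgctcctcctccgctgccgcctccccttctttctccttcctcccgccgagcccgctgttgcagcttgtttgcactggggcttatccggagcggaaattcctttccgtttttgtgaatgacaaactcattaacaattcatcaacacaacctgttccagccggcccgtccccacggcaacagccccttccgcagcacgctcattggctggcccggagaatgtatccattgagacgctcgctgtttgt
PHLDA1 (chr12:76031777-76032026): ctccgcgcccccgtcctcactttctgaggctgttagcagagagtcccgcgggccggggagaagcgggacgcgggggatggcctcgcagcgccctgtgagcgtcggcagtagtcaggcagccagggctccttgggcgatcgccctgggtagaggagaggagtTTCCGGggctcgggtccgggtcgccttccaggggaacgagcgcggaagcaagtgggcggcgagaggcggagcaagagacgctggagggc
SPRY2 (chr13:80341127-80341376): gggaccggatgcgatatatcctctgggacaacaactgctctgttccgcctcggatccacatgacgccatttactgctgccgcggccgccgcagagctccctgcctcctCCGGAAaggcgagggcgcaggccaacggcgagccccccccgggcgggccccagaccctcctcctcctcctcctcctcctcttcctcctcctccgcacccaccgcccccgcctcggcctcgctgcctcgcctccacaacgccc
The capitals in PHLDA1 and SPRY2 each mark a CCGGAA match, read on the opposite strand in PHLDA1 and starting at -89 and -142 bp. The DUSP6 window holds neither motif in full, though the shorter GGAA occurs in it. Of the other 3 matched members, SPRED2 holds 1 CATCTG match and SPRED1 and SPRY4 hold neither, and the RefSeq start of SPRY4 lies 2208 bp from the 5′ end in the count table.

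DUSP6 was the member called higher in all 5 clones, which are compared with the same WT libraries. The share of all genes called higher in all 5 clones is not given here, so the calls are a description of DUSP6 only. It lies on the minus strand of chromosome 12 (hg38, chr12:89347235-89352501, ENSG00000139318.8). In MDST8 WT it was at 31.9, 29.3 and 28.5 CPM in libraries A, B and C. Clone 1.1 had 49.5, 53.1 and 50.4 CPM, clone 2.2 had 48.9, 47.5 and 43.6 CPM, and clone 3.2 had 47.7, 49.0 and 48.5 CPM. Clones 3.5 and 3.6 stood above these, at 64.1, 71.8 and 75.8 CPM and at 74.6, 73.5 and 77.1 CPM. No knockout library fell within the range of WT, and the ranges of clones 3.5 and 3.6 overlapped each other but not those of the other clones. On the log2 scale the difference from WT was 0.76 ± 0.06 (SE, n = 3 against 3) in clone 1.1, 0.64 ± 0.06 in clone 2.2, 0.68 ± 0.06 in clone 3.2, 1.23 ± 0.06 in clone 3.5 and 1.32 ± 0.06 in clone 3.6. Here a gene is called when its log2 fold change exceeds 0.58 in either direction and its edgeR adjusted p-value, over all genes tested, is below 0.05. In LoVo labelled shRNA control DUSP6 was at 35.3, 38.9 and 40.6 CPM, and in LoVo labelled TWIST1 shRNA at 380, 373 and 350 CPM, a 9.67-fold difference (log2 3.27 ± 0.07). LoVo labelled shRNA control thus lay between MDST8 WT and the clones without overlapping either.

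The DUSP6 count rests on part of the transcript. Of its 3859 exon bases, 1105 (28.63%) are shared with ENSG00000274021, a gene on the opposite strand, and counting ignored strand and dropped fragments that fell on both genes. ENSG00000274021 itself had 8 to 47 counts in MDST8 libraries, 3 to 7 in LoVo labelled shRNA control and 63 to 80 in LoVo labelled TWIST1 shRNA, against 567 to 1674 counts of DUSP6 in MDST8. PHLDA1 shares 553 of its exon bases with PHLDA1-AS1, which had at most 11 counts in any library. ETV4 shares 68 bases with DHX8 and ETV5 164 bases with DGKG, and the other 6 members share none.

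DUSP4 was called higher in clones 1.1 and 3.6. The gene lies on chromosome 8 (chr8:29333064-29350684, ENSG00000120875.9). It was at 96.5, 105 and 99.7 CPM in WT and at 105, 101 and 97.5 CPM in clone 2.2, so these groups overlapped (log2 difference 0.01 ± 0.05). The other 4 clones lay above WT with no overlap: 151 to 164 CPM in clone 1.1, 136 to 152 in clone 3.2, 132 to 155 in clone 3.5 and 156 to 167 in clone 3.6. Their log2 differences were 0.63, 0.51, 0.49 and 0.68, each with an SE of 0.05. In LoVo, DUSP4 was at 132, 130 and 135 CPM in the libraries labelled shRNA control and at 464, 514 and 551 CPM in those labelled TWIST1 shRNA, a 3.88-fold difference.

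DUSP5 (chr10:110497907-110511533, ENSG00000138166.6) was called in no comparison. In WT it was at 36.1, 39.6 and 35.2 CPM. Clones 1.1, 2.2, 3.2 and 3.5 lay between 26.9 and 34.5 CPM, just under WT, with log2 differences of -0.21, -0.34, -0.20 and -0.20, each with an SE of 0.07. Clone 3.6 lay above WT at 48.5, 49.9 and 50.0 CPM (log2 0.42 ± 0.06). LoVo labelled shRNA control had 789, 824 and 838 CPM and LoVo labelled TWIST1 shRNA 614, 670 and 671 CPM, a log2 difference of -0.32 ± 0.06 within LoVo. Every LoVo library lay above every MDST8 library.

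**Figure D2:**
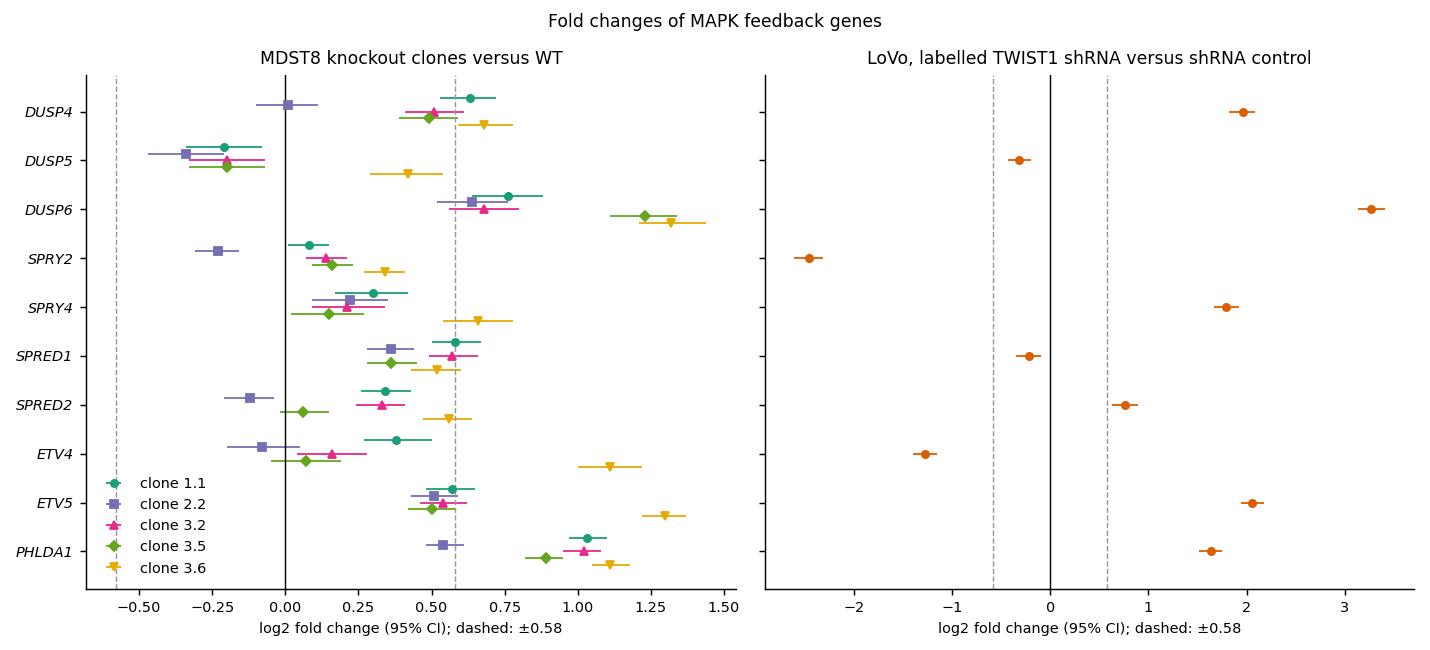
Log2 fold change (x axis) of each gene with a normal 95% interval from its standard error in the edgeR fit, for the 5 MDST8 knockout clones against WT on the left and for LoVo labelled TWIST1 shRNA against shRNA control on the right, with 3 libraries per group and dashed lines at the threshold of 0.58; the x axes have different ranges. DUSP6 lies right of the threshold in all 6 comparisons, while SPRY2 runs from -0.23 to 0.34 in the clones and is at -2.46 in LoVo.

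SPRY2 (chr13:80335976-80341126, ENSG00000136158.12) was called in no clone and was the member with the largest negative difference in LoVo. In WT it was at 132, 140 and 125 CPM. Clone 1.1 overlapped WT at 139 to 144 CPM, clone 2.2 lay below at 112 to 114 CPM, and clones 3.2, 3.5 and 3.6 lay above at 145 to 149, 145 to 153 and 165 to 170 CPM. The log2 differences ran from -0.23 in clone 2.2 to 0.34 in clone 3.6, each with an SE of 0.04. In LoVo it was at 81.6, 82.4 and 83.1 CPM in the libraries labelled shRNA control and at 14.1, 15.3 and 15.1 CPM in those labelled TWIST1 shRNA (log2 -2.46 ± 0.07).

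SPRY4 (chr5:142310427-142326455, ENSG00000187678.10) moved the opposite way to SPRY2 in LoVo. It was at 44.9, 43.3 and 40.7 CPM in LoVo labelled shRNA control and at 141, 151 and 152 CPM in LoVo labelled TWIST1 shRNA, a 3.46-fold difference. In MDST8 it was at 31.0, 36.2 and 31.1 CPM in WT, and only clone 3.6, at 51.2, 51.2 and 53.5 CPM, passed the call threshold (log2 0.66 ± 0.06). Clones 1.1, 2.2 and 3.2 lay between 36.7 and 42.4 CPM, above all WT libraries, and clone 3.5 overlapped WT at 33.8 to 39.4 CPM.

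SPRED1 (chr15:38252836-38357249, ENSG00000166068.13) sat at the threshold. It was at 111, 103 and 101 CPM in WT and higher in all 15 knockout libraries, from 132 CPM in clone 2.2 to 165 CPM in clone 1.1. The log2 difference was 0.58 ± 0.04 in clone 1.1, which was called, and 0.57 ± 0.04 in clone 3.2, which was not, so that these clones are not shown to differ in SPRED1. Clones 3.6, 3.5 and 2.2 had 0.52, 0.36 and 0.36. Leaving out 1 library moved the value in clone 1.1 between 0.56 and 0.63, and without WT library C or clone library C the call was lost. In clone 3.2 the value was 0.63 and called without WT library A. In LoVo SPRED1 was at 86.4 to 92.3 CPM in the libraries labelled shRNA control and at 69.0 to 80.4 CPM in those labelled TWIST1 shRNA (log2 -0.22 ± 0.07, not called).

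SPRED2 (chr2:65310851-65432637, ENSG00000198369.10) was called in no clone. It was at 84.9, 81.2 and 80.7 CPM in WT. Clones 2.2 and 3.5 overlapped WT at 72.5 to 80.9 and 84.5 to 90.6 CPM, and clones 1.1, 3.2 and 3.6 lay above it at 104 to 106, 103 to 106 and 116 to 126 CPM. The largest log2 difference was 0.56 ± 0.04 in clone 3.6, which became 0.59 and was called without WT library A or without clone library A. In LoVo it was called higher, at 136, 138 and 142 CPM in the libraries labelled TWIST1 shRNA against 88.9, 76.3 and 81.9 CPM in those labelled shRNA control (log2 0.76 ± 0.07).

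ETV5 and ETV4, paralogous ETS factors, moved together in clone 3.6 and apart in LoVo. ETV5 (chr3:186046314-186110318, ENSG00000244405.8) was at 78.5, 75.5 and 73.4 CPM in WT and at 102 to 116 CPM in clones 1.1, 2.2, 3.2 and 3.5, all above WT. Its log2 differences there, 0.57, 0.51, 0.54 and 0.50, each with an SE of 0.04, lay just under the threshold, and without WT library A the value in clone 1.1 was 0.60 and called. Clone 3.6 stood apart at 186, 187 and 188 CPM (log2 1.30 ± 0.04). In LoVo ETV5 was at 76.5, 71.4 and 66.7 CPM in the libraries labelled shRNA control and at 293, 296 and 299 CPM in those labelled TWIST1 shRNA, a 4.17-fold difference.

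ETV4 (chr17:43527844-43579620, ENSG00000175832.13) was at 31.1, 31.9 and 27.6 CPM in WT. Clones 2.2, 3.2 and 3.5 overlapped WT, at 28.0 to 35.9 CPM, and clone 1.1 lay above it at 38.5 to 40.6 CPM (log2 0.38 ± 0.06). Clone 3.6 was again apart, at 65.6, 65.7 and 64.7 CPM (log2 1.11 ± 0.06), and was the only clone in which ETV4 was called. In LoVo ETV4 was at 198, 181 and 193 CPM in the libraries labelled shRNA control and lower, at 76.4, 80.6 and 76.8 CPM, in those labelled TWIST1 shRNA (log2 -1.28 ± 0.06).

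PHLDA1 (chr12:76025447-76031776, ENSG00000139289.15), the most abundant member per kb in MDST8, was called higher in 4 clones. It was at 819, 792 and 817 CPM in WT. Clone 2.2 had the smallest difference, at 1190, 1190 and 1170 CPM (log2 0.54 ± 0.03, not called), and did not overlap WT. Clones 1.1, 3.2, 3.5 and 3.6 lay between 1500 and 1780 CPM, with log2 differences of 1.03, 1.02, 0.89 and 1.11, each with an SE of 0.03. In LoVo it was at 271, 270 and 281 CPM in the libraries labelled shRNA control and at 817, 860 and 866 CPM in those labelled TWIST1 shRNA, which overlapped the range of MDST8 WT.

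Clone 3.6 had the largest difference from WT among the clones for 9 members, all but SPRED1, though its range overlapped that of clone 3.5 for DUSP6 and of clone 1.1 for DUSP4. Clone 2.2 had the smallest, or most negative, difference for most members. The exceptions were SPRY4, lowest in clone 3.5, and ETV5 and SPRED1, for which clones 2.2 and 3.5 were within 0.01 of each other. Members called higher numbered 4 of 10 in clone 1.1 (all genes tested: 12%), 1 in clone 2.2 (8.05%), 2 in clone 3.2 (10.9%), 2 in clone 3.5 (11.2%) and 6 in clone 3.6 (15.3%). No member was called lower in any clone, where 7.49%, 6.64%, 6.09%, 7.25% and 11.7% of all genes tested were. In LoVo 6 members were called higher (26.6%) and 2 lower (26.1%). The 5 clone comparisons share the same WT libraries and are not independent of each other, and clones 3.2, 3.5 and 3.6 also share a tag in the labels.

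The median log2 difference of the members was 0.47, 0.11, 0.42, 0.26 and 0.67 in clones 1.1, 2.2, 3.2, 3.5 and 3.6, against medians between -0.01 and 0 over all genes tested. It was 1.20 in LoVo, against 0.01 over all genes. The groups did not overlap for 9, 7, 9, 7 and 10 of the 10 members in these clones and for 10 in LoVo. Groups of 3 libraries did not overlap for 65.8%, 61.3%, 64.5%, 64.5% and 70.5% of all genes in the clones and 79.8% in LoVo, so non-overlap was common among genes in general. All 10 members passed edgeR's F test for a difference among the 5 clones, as did 81.0% of all genes tested, which is near enough that the count says nothing particular about the members.

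The difference between the LoVo effect, as labelled, and the mean effect of the 5 clones was largest for SPRY2 (log2 -2.60 ± 0.06) and DUSP6 (2.30 ± 0.08) and smallest for DUSP5 (-0.25 ± 0.07). All 10 members passed the test of this difference, against 79.0% of genes tested in both lines, near enough that the count says nothing particular about the members. SPRY2, SPRED1 and ETV4 had a negative LoVo value and a positive mean over the clones.

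The other genes of the pathway came from lists drawn up with earlier results known. The genes named from them were picked by their values in these libraries, so no p-value is given for them. Counts of called genes are read against all genes tested. Those were called higher and lower in 12% and 7.49% of cases in clone 1.1, 8.05% and 6.64% in clone 2.2, 10.9% and 6.09% in clone 3.2, 11.2% and 7.25% in clone 3.5, 15.3% and 11.7% in clone 3.6 and 26.6% and 26.1% in LoVo. Higher calls outnumbered lower ones among all genes in each comparison, from 50.5% of calls in LoVo to 64.1% in clone 3.2. Of 23 core cascade genes (RAS, RAF, MEK and ERK genes with adaptors, RAS-inactivating proteins and ERK-activated kinases), at most 1 was called in any clone, and their median log2 difference lay between -0.03 and 0.11. In LoVo 4 were called higher and 7 lower. Other negative regulators of receptor and MAPK signaling, such as further dual-specificity phosphatases, Sprouty genes and SPRED3, had 11 of 14 genes tested in MDST8: 1 higher and 1 lower in clone 1.1, 0 and 6 in clone 2.2, 2 and 1 in clone 3.2, 0 and 0 in clone 3.5 and 0 and 3 in clone 3.6. Of 13 tested in LoVo, 7 were called higher and 4 lower. The 6 called lower in clone 2.2 were DUSP1, DUSP8, DUSP9, DUSP10, DUSP16 and LRIG1, named after their values were seen. DUSP9, another cytoplasmic ERK phosphatase, was the one with the largest difference in clone 2.2 (log2 -2.20 ± 0.51), at 0 to 0.724 CPM against 0.952 to 1.94 CPM in WT.

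Genes known to respond to ERK, outside the feedback list, had more higher than lower calls in each comparison, as did all genes. Of 18 tested in MDST8, 4 were called higher and 0 lower in clone 1.1, 3 and 1 in clone 2.2, 7 and 0 in clone 3.2, 5 and 1 in clone 3.5 and 9 and 2 in clone 3.6, where 15.3% and 11.7% of all genes were. EGR1, an immediate-early zinc finger factor, was at 10.3 to 17.3 CPM in WT and at 103 to 110 CPM in clone 3.6 (log2 2.83 ± 0.23). It was at 33.8 to 59.3 CPM in clone 3.2 and 34.6 to 56.7 CPM in clone 3.5, and in clones 1.1 and 2.2 its ranges overlapped WT, although it was called in clone 1.1 (log2 0.63 ± 0.27). EGR3 ranged from 0.351 to 0.502 CPM in WT and from 2.07 to 2.35 CPM in clone 3.6 (log2 2.39 ± 0.30). It was also called higher in clones 2.2, 3.2 and 3.5 (log2 1.22, 1.08 and 1.90) but not in clone 1.1. Its level was low, below 1 CPM in WT, and it passed the filter through clones where it was higher, so its calls carry little weight. FOSB, an AP-1 subunit, was called lower in clones 2.2 and 3.6. In clone 3.6 it was at 1.57 to 2.08 CPM (log2 -1.06 ± 0.29), and in clone 2.2 at 0.627 to 0.971 CPM against 3.16 to 4.92 CPM in WT (log2 -2.14 ± 0.33).

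In LoVo 16 of 19 ERK-induced genes were called higher and 2 lower, against 26.6% and 26.1% of all genes tested, with a median log2 difference of 1.71 against 0.01. EGR1 was at 31.4 to 43 CPM in the libraries labelled shRNA control and 770 to 853 CPM in those labelled TWIST1 shRNA. FOSB, with 3.93 CPM at most in the first group, reached 117 to 154 CPM. EGR3 was at 0.051 to 0.115 against 6.39 to 11 CPM and EGR2 at 0.0576 to 0.102 against 16.6 to 18 CPM. EGR2 and EGR3 lay below 1 CPM in the first group and passed the filter only through the second. Their calls are counted among the 16 but carry no weight of their own.

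Receptors and growth factors had calls in both directions in 4 of the 5 clones. Of 17 tested in MDST8, 2 were called higher and 5 lower in clone 1.1, 3 and 2 in clone 2.2, 1 and 6 in clone 3.2, 0 and 3 in clone 3.5 and 5 and 6 in clone 3.6, where 15.3% and 11.7% of all genes were. Of 20 tested in LoVo, 7 were called higher and 5 lower, against 26.6% and 26.1% of all genes tested. FGF2, a fibroblast growth factor, was the gene of these lists called lower in all 5 clones, from 8.35 to 10.1 CPM in WT to between 3.12 and 6.18 CPM in the knockout libraries, with log2 differences of -0.85 to -1.42. The share of all genes called lower in all 5 clones is not given here. FGF2 was also called lower in LoVo labelled TWIST1 shRNA, at 11.8 to 12.6 CPM against 107 to 118 CPM (log2 -3.22 ± 0.08). FGF1 differed in direction between clones, at 0.297 to 0.497 CPM in clone 3.6 and 8.15 to 8.48 CPM in clone 2.2 against 3.72 to 4.01 CPM in WT. EREG, an EGF receptor ligand, was at 37.4 to 43.1 CPM in WT and at 14.1 to 16.1 CPM in clone 3.5 (log2 -1.46 ± 0.08), and was called lower in clones 1.1, 3.2 and 3.6 too. FGFR3 was called higher in clones 1.1, 2.2 and 3.6, but its level was low. It was at 0.473 to 1.31 CPM in WT and 1.26 to 2.51 CPM in clone 2.2, which overlapped. FGFR4 was called lower in clones 3.2 and 3.6. BTC was called lower in clone 2.2 and higher in clones 3.2 and 3.6, also at low levels, with 1.3 to 1.96 CPM in WT and 0.306 to 0.724 CPM in clone 2.2.

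**Figure D3:**
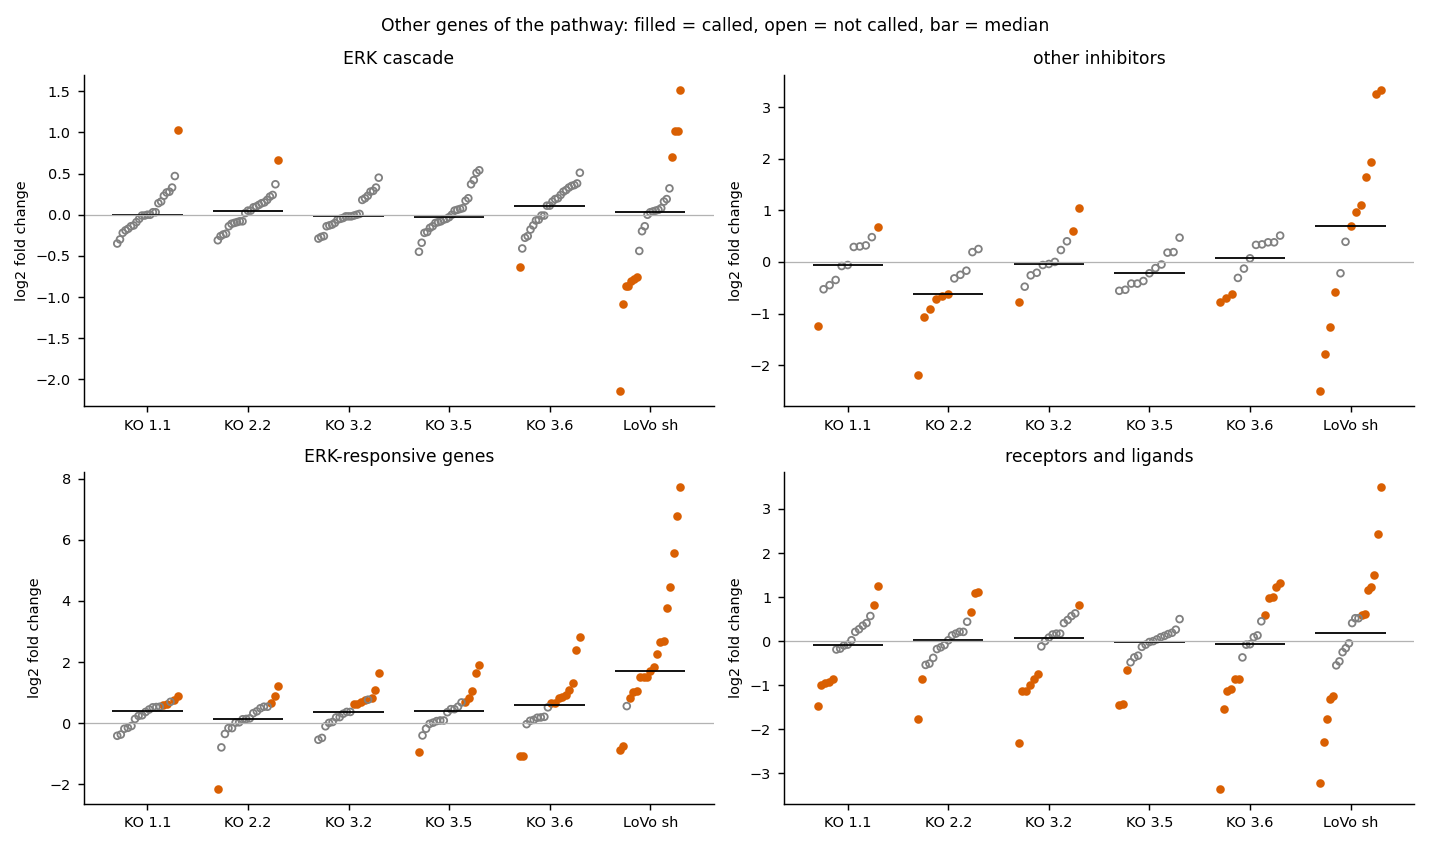
Log2 fold change (y axis, a different range in each panel) of every tested gene of the 4 other lists, by comparison (KO clones against MDST8 WT, and LoVo labelled TWIST1 shRNA against shRNA control). Filled points were called, open points were not and bars mark medians; for the ERK-responsive genes the median runs from 0.15 in clone 2.2 to 0.58 in clone 3.6 and is 1.71 in LoVo.

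The genes whose group means followed DUSP6 most closely over the 8 groups, by Pearson's r of mean log2 CPM with 0.5 CPM added, were ITPRID2 (0.989), GPR37 (0.987), NOL3 (0.985), PLD3 (0.982) and FLYWCH1 (0.981). GPR37 was near the floor, with means of 0.701 to 1.51 CPM in every group but LoVo labelled TWIST1 shRNA. ITPRID2 was at 258 CPM in MDST8 WT, 316 to 412 CPM in the clones, and 283 and 916 CPM in LoVo labelled shRNA control and TWIST1 shRNA. For each of the 5 the highest mean was in LoVo labelled TWIST1 shRNA, as for DUSP6, and the values share libraries and normalisation. Over the 6 MDST8 groups alone, PHLDA1 (0.84), ETV5 (0.83) and DUSP4 (0.76) followed DUSP6 most closely among the members and DUSP5 least (0.33), as a description of 6 points that share WT and depth.

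The question of TWIST1 binding at these genes was addressed by ChIP-seq. The members were chosen with earlier results of these data known, so their peaks are given as a description too. A listed peak lay within 3000 bp of the 5′ end of 8 of the 10 members in MDST8, while 77.5% of genes tested in both lines and 63.1% of all annotated genes had one. In LoVo it was 5 of 10, against 58.1% and 55.7%. Both counts are near the background of genes in general. The lists hold 338877 peaks in MDST8 and 333621 in LoVo, since the authors kept peaks at a p-value below 0.05 with no correction, and 1075 and 1550 of them reach a q-value of 0.05. No peak near a member did: the lowest q-value was 0.159 in MDST8 and 0.751 in LoVo. Each list comes from 1 ChIP library, so no peak has a replicate check. TWIST1 mRNA reached at most 5.31 CPM in any LoVo RNA-seq library, against 40.0 to 51.8 CPM in MDST8 WT. The part of this level in the LoVo peaks was not tested.

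The peak with the lowest p-value lay at SPRY4 in MDST8 (chr5:142326251-142327273), where it covered the 5′ end, with its summit at -698 bp, upstream, a fold enrichment of 3.66 over local background and a MACS2 q-value of 0.159. At DUSP6 the MDST8 peak (chr12:89353283-89353561) had its summit at -874 bp, with a fold enrichment of 2.61 and q = 0.802, and the LoVo peak (chr12:89354595-89355224) had its summit at -2226 bp, with 2.58 and q = 0.751. ETV4 had 3 peaks in MDST8 and 0 in LoVo. SPRED1 and ETV5 had none in either line, and DUSP4, DUSP5, DUSP6, SPRED2 and PHLDA1 had at least 1 in both.

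**Figure D4:**
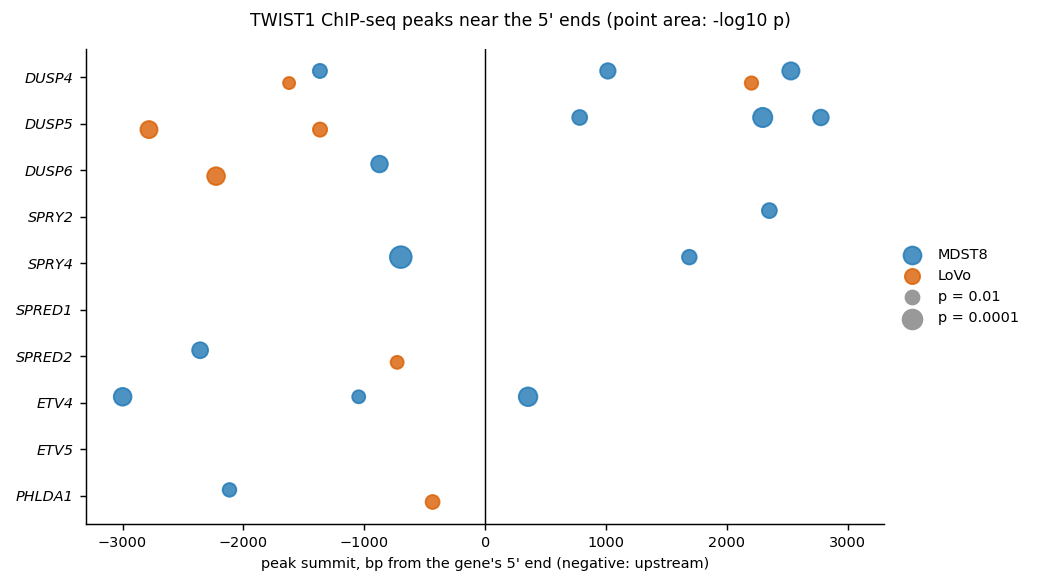
Distance of each listed TWIST1 peak summit from the gene's 5′ end in bp (x axis, negative upstream), with point area proportional to -log10 of the p-value, for MDST8 (15 peaks) and LoVo (7 peaks). The peak with the lowest p-value is that of SPRY4 in MDST8 at -698 bp, and SPRED1 and ETV5 have none.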

How the data were processed

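The authors trimmed RNA-seq reads with Trim Galore 0.6.6, aligned them to hg38 with HISAT2 2.1.0 and deposited a count of fragments per gene from featureCounts 2.0.0 on GENCODE genes, unnormalised and, per the file headers, without using strand. The exon length in bp, another value of the tables, per the file headers, served to give levels per kb. ChIP-seq reads were aligned with Bowtie2 2.4.5, and for each MACS2 2.2.7.1 peak the authors deposited a score, a fold enrichment (ratio), a p-value and a q-value as -log10, and the summit's offset. Versions come from the submitters' processing notes. The scores were not used. The peaks were read as hg38.

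The members and all lists were chosen with earlier results of these data known. Genes were kept where the geometric mean of depth-scaled counts (CPM), with an offset of 1, reached 1 over the libraries of a line. The tests then covered 13706 MDST8 genes and 14270 LoVo genes, of which 12132 are shared. Counts were normalised by TMM and tested with edgeR 4.0.16 (quasi-likelihood, Benjamini-Hochberg adjustment) in R 4.3.3, in 1 fit per line, and the difference between lines in 1 fit of all 24 libraries. Levels are CPM with TMM factors over all 24 libraries. Intervals are 95%. The fits, overlaps and motif search were tested on simulated data. Named genes were the members, TWIST1, pathway genes called alike in all 5 clones or among the 3 largest differences of a comparison, and the 5 genes most like DUSP6. Alternatives were DESeq2 1.42.0, limma 3.58.1 with voom or on log2(count + 1), RLE factors, other filters, pairwise fits, replicate letter as a block, fits without 1 library, and other peak windows and thresholds.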

Additional observations from a re-analysis of the deposited data

Results flagged for a closer look

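Each of the 10 members passed edgeR's test of a difference between the LoVo effect, as labelled, and the mean effect of the 5 MDST8 clones. The fit held all 24 libraries, and 79.0% of the genes tested in both lines passed as well. The count is near that of genes in general and says nothing particular about the members, whose values are a description. On the log2 scale, LoVo minus the clone mean was 1.45 for DUSP4, -0.25 for DUSP5 and 2.30 for DUSP6. It was -2.60 for SPRY2, 1.44 for SPRY4, -0.74 for SPRED1 and 0.49 for SPRED2. It was -1.65 for ETV4, 1.34 for ETV5 and 0.68 for PHLDA1. Because TWIST1 went against the LoVo labels, the sign of each value holds for the labels only. Cell line, method of perturbation and label cannot be told apart in these differences.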

How the results depend on the processing

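Of 60 member calls (10 genes in 6 comparisons), limma-voom kept 60, DESeq2, RLE factors and edgeR's filterByExpr 59 each, no filter 58 and limma on log2(count + 1) 55. None changed direction. Without 1 library, 353 of 360 calls were kept. The calls that changed were those of SPRED1, SPRED2 and ETV5 in clones 1.1, 3.2 and 3.6, near the 0.58 threshold. On log2(count + 1), which skips library size, members called in clone 3.2 numbered 4. Of all 13706 genes, 1760 were called higher in that clone, against 1491 in the main fit. The median of all genes in clone 3.6 moved to 0.13. On log2(count + 1) the share of calls that were higher was 74.0% in clone 3.2 and 70.8% in clone 3.6, against 64.1% and 56.7%. Without 1 library, members called ranged from 3 to 5 in clone 1.1, 2 to 3 in clone 3.2 and 6 to 7 in clone 3.6. With no filter, 14 pathway genes were called in clone 3.5, against 9, but 36578 genes were tested, against 13706. Of all genes tested, 1915 were then called higher and 1352 lower in clone 3.5, against 1541 and 994. Same-letter libraries did not deviate together (r from -0.106 to 0.12 over 15 pairs), and a replicate block left 4, 1, 2, 2 and 6 members called in clones 1.1, 2.2, 3.2, 3.5 and 3.6. Shares of all genes called are not given for the fits with a block or without 1 library. The counts of members in those fits therefore say nothing particular about the members. Members with a promoter peak numbered 5 in MDST8 and 2 in LoVo within 1000 bp, 4 and 1 at a p-value of at most 0.001, and 0 and 0 with the q-value limit set to 0.05. The share of all genes with a peak is not given for these settings, so these counts say nothing particular about the members. The q-value of the peaks, from 1 library per line, limits what can be said of binding.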
